A study of Homo sapiens with 24 samples.

Results

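The nuclear pore and its mRNA export machinery were followed as a group of 39 genes, of 19242 entries of the count tables that name a single gene. They were chosen by name: every gene whose symbol is NUP followed by digits, together with RANBP2, TPR, SEH1L, AAAS, RAE1, NDC1, GLE1, NXF1, NXT1, DDX19A, DDX19B, ALYREF and 6 THO genes. The rule uses symbols and no measured value. The nuclear pore complex is a channel through the nuclear envelope, built of ring-shaped scaffolds of nucleoporins around a channel lined with FG-repeat nucleoporins. Messenger RNA is packaged during transcription with the help of the THO complex and ALYREF and is carried through the channel by the NXF1-NXT1 receptor. At the cytoplasmic side the RNA helicase DDX19, with GLE1 and NUP214, strips export factors from it.

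The data are catabolic SLAM-seq in HEK293, an established human embryonic kidney cell line. New RNA takes up the uridine analogue 4-thiouridine (s4U), which sequencing then reads as T>C conversions. Older labelled RNA can thus be followed once s4U is withdrawn. Cells labelled Flag/HA-ZC3H7B-OE overexpress ZC3H7B, a zinc finger protein, and are called ZC3H7B-OE; control cells carry the Flag/HA overexpression genotype and also had doxycycline. In both, a pulse of s4U (100 µM) and doxycycline (1 µg/mL) ran for 24 h, uridine (10 mM) then served as the chase, and polyA RNA was taken at 0, 2, 4 and 6 h in 3 libraries each. The labels do not say whether a line is 1 clone, nor whether replicates are separate cultures; the p-values therefore measure only how far these samples spread, and that spread may be technical.

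Libraries held 1502070 to 3676250 reads, of which 830574 to 1579740 carried conversions and are called labelled here. Levels are given as CPM, that is read counts relative to the library total after TMM scaling. ZC3H7B itself was at 329 ± 75.3 CPM in ZC3H7B-OE and 270.2 ± 74.2 CPM in control (SD over 12 libraries each), which is 0.28 on the log2 scale (SE 0.08, adjusted p = 0.0035 by edgeR). Whether reads of the construct enter that value is not given. Of 7 genes listed as HEK293 markers, 6 are in the table, with a summed level of 141 to 240.3 CPM in ZC3H7B-OE and 128 to 206 CPM in control. Most of this was INA, at 164.5 CPM in ZC3H7B-OE and 124.1 CPM in control on average. VIM averaged 3.98 and 3.58 CPM, and NEFM and PAX2 at most 0.339 CPM. PTPRC, which marks leukocytes, and the fibroblast genes COL1A2 and DCN had 0 reads throughout. Summed markers ran over 60.1 to 132 CPM in ZC3H7B-OE and 45.8 to 281 CPM in control for leukocytes (4 of 5 genes with a read, mostly CD68), and over 9.84 to 38.8 CPM and 12.6 to 82.0 CPM for epithelial cells (4 of 4). For fibroblasts (3 of 5) they ran over 0 to 5.22 CPM in ZC3H7B-OE and 0.340 to 3.69 CPM in control. Control replicate 3 at 0 h stood apart, with the lowest scaling factor (0.724) and the fewest genes with a read (11032), and results that rest on it are given without it too.

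Averaged over the 4 times, 5 of the 31 members with enough reads to test were higher in ZC3H7B-OE than in control and 8 were lower, at an adjusted p under 0.05 (edgeR quasi-likelihood, Benjamini-Hochberg over 10038 entries). Among all entries tested 20.3% were higher and 25.4% lower, so the members did not stand out by their share of calls. Their median log2 difference was 0.03, against 0.01 for all entries. The higher members were NUP214, NUP210, NUP62, NUP188 and NXF1. The lower members were NUP62CL, NDC1, SEH1L, NUP54, THOC7, NUP43, NUP50 and THOC5. All 13 had the same sign at each of the 4 times, and all 13 stayed among the 14 called without control replicate 3 at 0 h. The central channel held NUP62 (higher) and NUP54 (lower), and the membrane ring held NUP210 (higher) and NDC1 (lower).

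**Figure D1:**
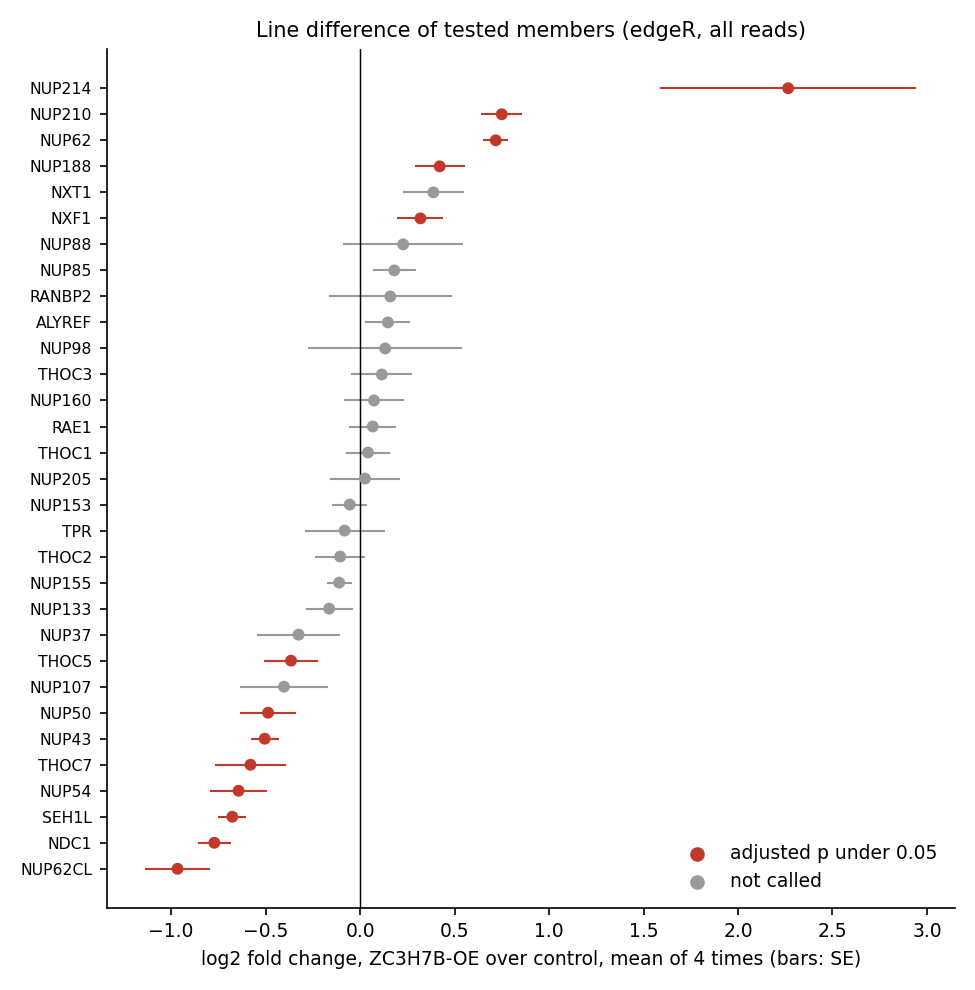
Log2 fold change of ZC3H7B-OE over control, averaged over the 4 chase times, for the 31 members tested (points; bars are SE from edgeR). Filled red points passed the adjusted p of 0.05; they run from 2.27 for NUP214 to -0.97 for NUP62CL, with 5 to the right of 0 and 8 to the left.

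The higher and lower members differed in the last base of their codons, a property that the choice of members did not use. Codons ending in G or C made up 75.4% of NUP210, 69.5% of NUP62 and 60.0% of NUP188, all higher in ZC3H7B-OE. They made up 40.2% of NDC1, 39.7% of SEH1L, 35.8% of NUP43 and 34.1% of NUP54, all lower. The median was 60.0% in the 5 higher members, 39.9% in the 8 lower ones and 41.5% in the 18 not called. Across the 31 members the log2 difference and this share had a Spearman rho of 0.58 (Pearson r 0.41), and across 9413 tested genes with a coding sequence rho was 0.50 (r 0.45). These are descriptions across genes measured in the same libraries, which are not independent replicates, and they are not particular to pore genes. Over all tested genes the medians were 72.8% in higher, 44.4% in lower and 61.1% in not called genes. At 0, 2, 4 and 6 h rho among members was 0.467, 0.419, 0.513 and 0.303, against 0.517, 0.271, 0.418 and 0.369 over all genes. NUP214 (44.5%, higher) and THOC5 (66.0%, lower) went the other way.

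To show what these shares look like in sequence, the coding strand of 6 members is printed over 50 codons each (GENCODE v29, GRCh38, 5′ to 3′, in frame). For each gene it is the first stretch whose share of codons ending in G or C is nearest to that of its whole coding sequence. Capitals mark the last base of a codon where it is A or T. The 6 all go with the trend over members. NUP214 (higher) and THOC5 (lower) go against it and are not printed, with 28 and 17 codons ending in A or T. NUP62 (chromosome 19, codons 88 to 137) and NUP210 (chromosome 3, codons 141 to 190) were higher in ZC3H7B-OE and have 15 and 12 such codons.
NUP62: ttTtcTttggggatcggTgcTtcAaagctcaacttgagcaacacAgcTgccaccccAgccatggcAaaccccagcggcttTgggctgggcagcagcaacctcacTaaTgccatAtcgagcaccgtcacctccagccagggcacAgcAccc
NUP210: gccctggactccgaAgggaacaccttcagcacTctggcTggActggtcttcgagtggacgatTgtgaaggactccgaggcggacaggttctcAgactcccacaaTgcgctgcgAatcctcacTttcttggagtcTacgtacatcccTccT
SEH1L (chromosome 18, codons 30 to 79), NUP43 (chromosome 6, codons 30 to 79), NDC1 (chromosome 1, codons 23 to 72) and NUP54 (chromosome 4, codons 13 to 62) were lower and have 30, 32, 30 and 33.
SEH1L: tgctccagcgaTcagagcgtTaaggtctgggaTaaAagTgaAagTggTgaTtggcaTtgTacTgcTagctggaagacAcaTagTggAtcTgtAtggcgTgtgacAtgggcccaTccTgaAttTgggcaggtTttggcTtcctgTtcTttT
NUP43: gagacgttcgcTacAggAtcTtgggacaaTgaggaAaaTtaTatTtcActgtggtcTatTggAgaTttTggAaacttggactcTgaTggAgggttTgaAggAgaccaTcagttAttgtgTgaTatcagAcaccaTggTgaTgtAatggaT
NDC1: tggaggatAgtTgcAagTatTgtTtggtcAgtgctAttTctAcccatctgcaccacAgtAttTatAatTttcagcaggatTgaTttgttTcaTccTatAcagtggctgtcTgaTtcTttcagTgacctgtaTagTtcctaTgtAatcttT
NUP54: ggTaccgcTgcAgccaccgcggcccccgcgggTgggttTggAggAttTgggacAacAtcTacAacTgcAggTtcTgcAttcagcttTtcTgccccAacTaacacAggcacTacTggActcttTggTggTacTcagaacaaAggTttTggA

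**Figure D2:**
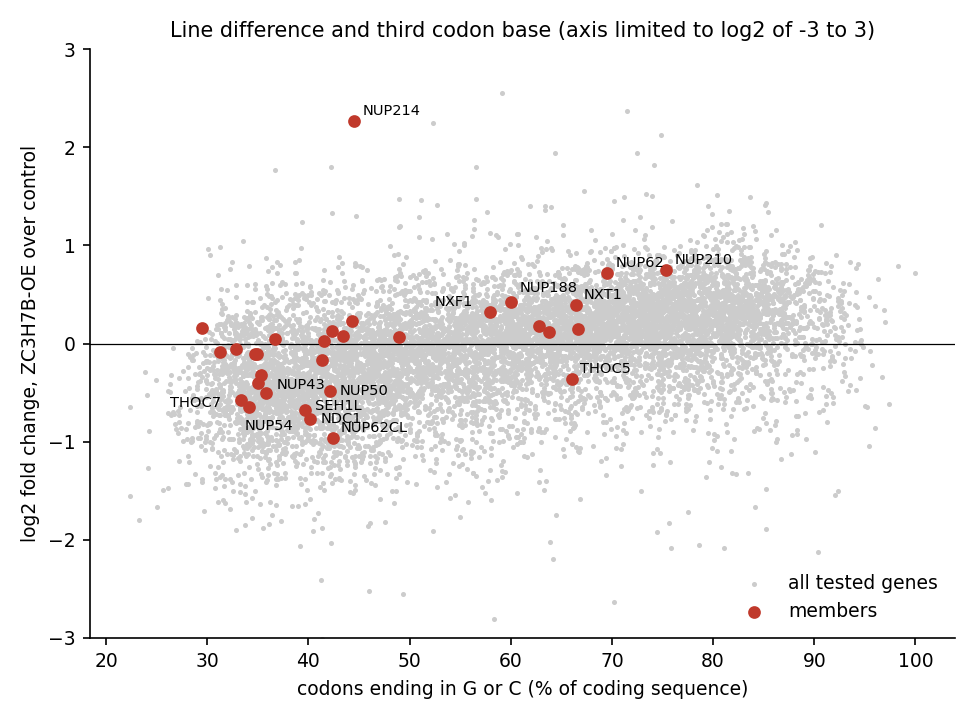
Log2 fold change of ZC3H7B-OE over control (y axis, limited to -3 to 3) against the percentage of codons that end in G or C (x axis) for 9413 tested genes (grey) and the 31 tested members (red). Spearman's rho is 0.58 over members and 0.50 over all genes; 15 genes lie outside the y limits.

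In the outer ring, the Y complex that forms the pore's scaffold, 2 of 8 members were lower in ZC3H7B-OE and 0 were higher. Over all entries 25.4% were lower and 20.3% higher, so its share of lower members was near that of all entries. SEH1L, a small subunit of the Y complex that also belongs to the GATOR2 complex of mTORC1 signalling, was lower at every time. At 0 h it stood at 45.1, 58.2 and 50.4 CPM in ZC3H7B-OE, against 110.1, 116 and 147 CPM in control. At 6 h it stood at 187, 215 and 192 CPM in ZC3H7B-OE, against 285, 246 and 298 CPM in control. The libraries of the lines did not overlap at these times, nor at 2 h, with 84.7, 89.2 and 90.9 CPM in ZC3H7B-OE, against 129.9, 123 and 122 CPM in control, or at 4 h, with 155, 137 and 140.1 CPM in ZC3H7B-OE, against 213, 161 and 219 CPM in control. The log2 difference was -0.68 (SE 0.07, adjusted p = 4.96e-09), which is 0.626 times the control level. NUP43, another small subunit of the ring, was lower at 0, 2 and 4 h and close to control at 6 h. It stood at 128, 141 and 144 CPM in ZC3H7B-OE, against 207, 203 and 335 CPM in control, at 0 h. At 4 h it stood at 175, 207 and 182 CPM in ZC3H7B-OE, against 266, 241 and 259 CPM in control. By 6 h the lines overlapped, with 352, 324 and 347 CPM in ZC3H7B-OE, against 353, 318 and 357 CPM in control.

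Over the 4 times the log2 difference of NUP43 was -0.50 (SE 0.07, adjusted p = 9.04e-07), and at 6 h alone it was -0.01 (SE 0.14, adjusted p = 0.978). The other subunits did not pass as an average: NUP107 had -0.40 (SE 0.23, adjusted p = 0.157), NUP37 -0.33, NUP133 -0.16, NUP160 0.07, NUP85 0.18 and NUP98, whose precursor also yields the Y complex subunit NUP96, 0.13. At 0 h alone NUP133 and NUP107 were lower, by log2 values of -1.07 and -1.61. These rest on few reads, 31 of NUP133 in ZC3H7B-OE against 59 in control and 11 of NUP107 against 31. With single 0 h libraries left out, NUP133 lost its call in the absence of control replicate 3 (adjusted p = 0.0556) or ZC3H7B-OE replicate 2 (0.112). NUP107 lost its call in the absence of ZC3H7B-OE replicate 1 or 2 (0.0631 and 0.111) or of control replicate 2 (0.115).

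Of 7 members of the inner ring and central channel, 5 were tested, 2 were higher and 1 was lower, against 20.3% and 25.4% of all entries. NUP62, the FG-repeat nucleoporin at the centre of the channel, was higher in every ZC3H7B-OE library than in any control library of the same time. At 0 h it stood at 862, 744 and 920.5 CPM in ZC3H7B-OE, against 538, 436 and 323 CPM in control. At 2 h it stood at 669, 716 and 613 CPM in ZC3H7B-OE, against 485, 479 and 445 CPM in control. The lines stayed apart later in the chase, with 1049, 942 and 1018 CPM in ZC3H7B-OE, against 598, 539 and 664 CPM in control, at 4 h. At 6 h it stood at 1037, 1039 and 1081 CPM in ZC3H7B-OE, against 671, 634 and 677 CPM in control. The log2 difference was 0.72 (SE 0.07, adjusted p = 1.35e-10) as a mean, and 0.96, 0.50, 0.74 and 0.67 at 0, 2, 4 and 6 h. Its exons overlap those of CTC-326K19.6 (AC011452.1 in GENCODE v29), a protein-coding gene on the same strand (log2 0.71, adjusted p = 1.82e-09), and of ATF5 on the opposite strand (log2 0.06, adjusted p = 0.88), so how reads were split between these genes is uncertain.

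NUP54, which forms the channel together with NUP62, was lower: it ran from 44.5 to 162 CPM with a median of 87.8 in the 12 ZC3H7B-OE libraries, against 75.0 to 254 CPM with a median of 126 in the 12 control libraries. Its log2 difference was -0.64 (SE 0.15, adjusted p = 0.00126). At each time the ZC3H7B-OE libraries lay below the control libraries, but at 0 h control replicate 3 stood at 254 CPM against 77.2 and 75.0 in the others, and without it the difference at 0 h was -0.41 (adjusted p = 0.0882). Without that library the mean over 4 times was -0.45 (adjusted p = 5.96e-07). NUP188, a large scaffold protein of the inner ring, was higher with a log2 difference of 0.42 (SE 0.13, adjusted p = 0.00934) and means of 33.0 ± 7.30 CPM in ZC3H7B-OE and 24.6 ± 5.56 CPM in control (SD over 12 libraries each). Its libraries overlapped at 0, 2 and 4 h and were apart at 6 h, and with the 6 h libraries left out the difference was 0.32 (adjusted p = 0.118). An exon of NUP188 overlaps SH3GLB2 on the opposite strand (log2 0.43, adjusted p = 2.41e-04). NUP155 and NUP205, the other inner ring scaffolds, had values of -0.11 (adjusted p = 0.179) and 0.03 (adjusted p = 0.925). NUP93 and NUP35 had 4 and 8 reads in all 24 libraries and were not tested.

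Among the transmembrane nucleoporins, which anchor the pore in the envelope, both tested members changed and in opposite directions. Of all entries 20.3% were higher and 25.4% lower. NDC1 was lower in every ZC3H7B-OE library than in the control libraries of its time. At 0 h it stood at 108, 116 and 113 CPM in ZC3H7B-OE, against 194, 262 and 449.8 CPM in control. At 2 h it stood at 142, 142 and 160.3 CPM in ZC3H7B-OE, against 252, 237 and 241 CPM in control. Both lines had higher values later in the chase, with 223, 172 and 211 CPM in ZC3H7B-OE, against 317, 292 and 303 CPM in control, at 4 h. The 6 h libraries stood at 308, 318 and 264 CPM in ZC3H7B-OE, against 377, 362 and 409 CPM in control. The log2 difference was -0.77 (SE 0.09, adjusted p = 1.16e-08) as a mean and -0.68 without control replicate 3 at 0 h. NUP210, the other transmembrane member, was higher. It stood at 145, 112 and 165 CPM in ZC3H7B-OE, against 64.4, 68.5 and 25.8 CPM in control, at 0 h. At 6 h it stood at 78.2, 69.9 and 72.2 CPM in ZC3H7B-OE, against 34.3, 44.5 and 43.8 CPM in control. The lines overlapped only at 2 h, with 69.7, 83.8 and 86.8 CPM in ZC3H7B-OE, against 60.9, 51.9 and 72.9 CPM in control. Its log2 difference was 0.75 (SE 0.11, adjusted p = 7.32e-07), 1.68 times the control level. AAAS, the NDC1-binding nucleoporin aladin, had 2 reads in all.

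**Figure D3:**
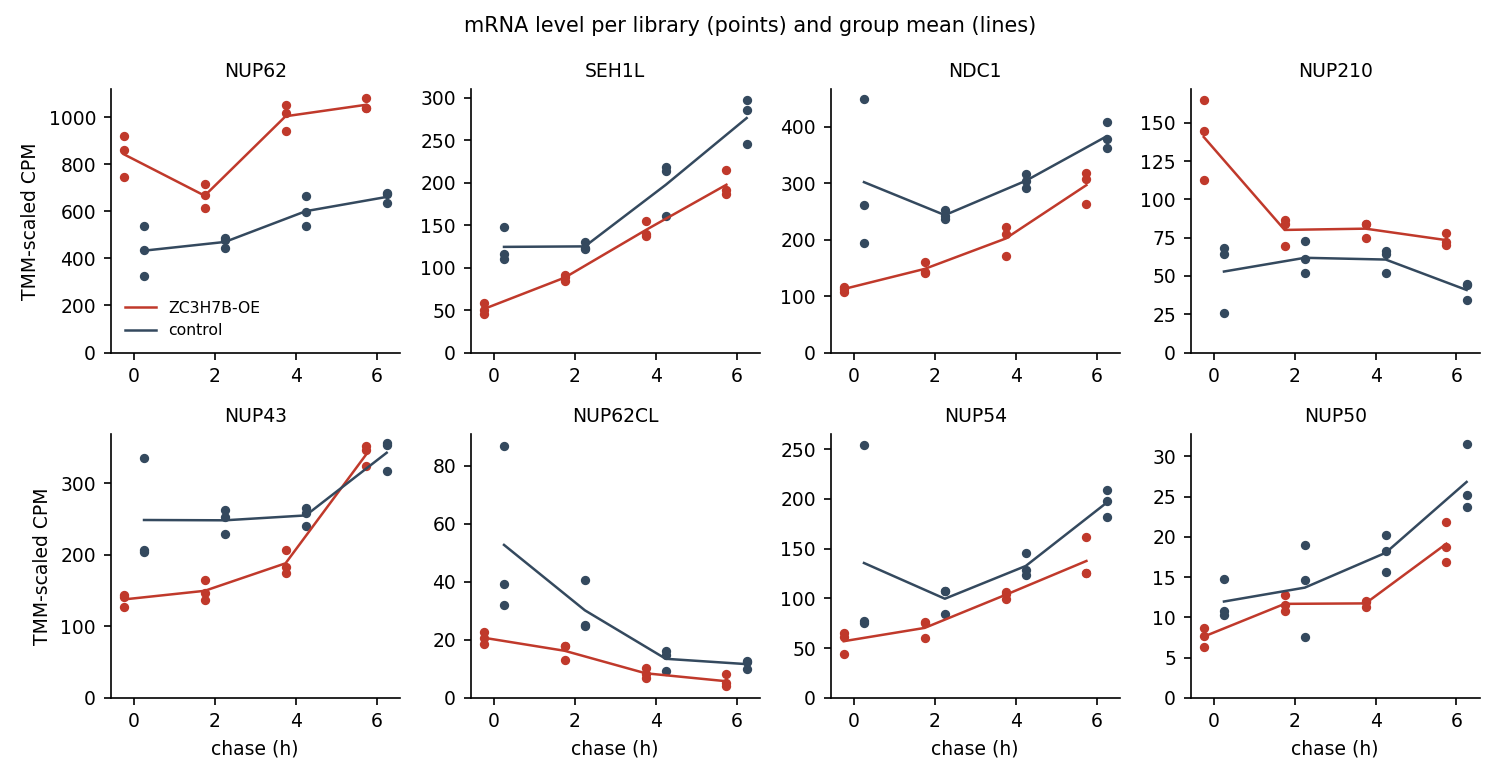
TMM-scaled CPM of 8 members in each library (points) and as group means (lines) at 0, 2, 4 and 6 h of chase, ZC3H7B-OE in red and control in blue, points shifted sideways for clarity. NUP62 and NUP210 lie higher in ZC3H7B-OE and the other 6 lower, with NUP43 meeting at 6 h (341 CPM in ZC3H7B-OE and 343 CPM in control on average); single high control points at 0 h are replicate 3.

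On the cytoplasmic face, 1 of 5 tested members of a list of 8 was called, as higher, against 20.3% of all entries. NUP214, the filament nucleoporin that binds DDX19, had 84 reads in ZC3H7B-OE against 51 in control over 12 libraries each. At 0 h it stood at 2.97, 1.45 and 1.74 CPM in ZC3H7B-OE, against 0, 0 and 0 CPM in control. Control thus had 0 reads at 0 h and 1 read at 2 h. Against a floor of 3 counts over the control group, the 11 reads of ZC3H7B-OE at 0 h gave a ratio of 3.32-fold. The counting error of those 11 reads is not in that ratio. The call of NUP214 at 0 h was lost in 5 of the 6 fits that left out a 0 h library. At 6 h the lines overlapped, with 7.16, 3.40 and 2.20 CPM in ZC3H7B-OE, against 5.77, 3.50 and 2.00 CPM in control. The fitted mean of 2.27 (SE 0.68, adjusted p = 0.00680) depends on the zeros, and with 0 h left out it was 1.28 (adjusted p = 0.0698). NUP88, the partner of NUP214, had 0.23 (adjusted p = 0.589), RANBP2, which forms the filaments, 0.16 (adjusted p = 0.718), and RAE1, an mRNA export factor that binds NUP98, 0.07 (adjusted p = 0.693). RANBP2 has close copies in the RGPD genes, so its reads are uncertain. Of all 39 members, 9 have an exon that overlaps one of another protein-coding gene, where reads may be split.

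The helicases DDX19A and DDX19B had 5 and 18 reads in entries of their own, and GLE1, which activates them, had 21, so none was tested. Most reads of the pair stood in entries shared with the gene RP11-529K1.3. The entry of DDX19A with that gene was at 30.7 ± 5.27 CPM in ZC3H7B-OE and 24.3 ± 4.47 CPM in control (SD over 12 libraries each), a log2 difference of 0.33 (SE 0.12, adjusted p = 0.0248). That of DDX19B had a difference of 0.19 (SE 0.15, adjusted p = 0.32). DDX19A and DDX19B are near-identical neighbours, so which of them gave these reads is uncertain.

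In the nuclear basket, the platform on the nuclear side, 1 of 3 members was lower, against 25.4% of all entries. NUP50, a mobile basket nucleoporin that also aids importin-dependent import, ran from 6.38 to 21.8 CPM with a median of 11.7 in the 12 ZC3H7B-OE libraries, against 7.56 to 31.5 CPM with a median of 16.9 in the 12 control libraries. The log2 difference was -0.49 (SE 0.15, adjusted p = 0.00744), and the lines were apart at 0, 4 and 6 h and overlapped at 2 h. With the 4 h libraries left out it was -0.44 (adjusted p = 0.0606). NUP153 and TPR, the large basket proteins, had -0.06 (adjusted p = 0.660) and -0.08 (adjusted p = 0.779).

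The mRNA export receptor is a pair of NXF1, which binds the pore and the RNA, and its small partner NXT1. NXF1 was higher, with a log2 difference of 0.32 (SE 0.12, adjusted p = 0.0317) and means of 35.4 ± 11.5 CPM in ZC3H7B-OE and 28.3 ± 8.64 CPM in control (SD over 12 libraries each). The libraries were apart only at 2 h, with 20.7, 27.4 and 22.5 CPM in ZC3H7B-OE, against 20.0, 13.5 and 20.0 CPM in control. The call rested on many libraries at once: it was lost in 9 of the 24 fits that left out 1 library, without filtering, and with 2, 4 or 6 h left out, with adjusted p between 0.0535 and 0.156. NXT1 had 0.39 (SE 0.16, adjusted p = 0.0510), and so missed the threshold of 0.05. At 2 h its libraries stood at 36.9, 38.7 and 34.2 CPM in ZC3H7B-OE, against 18.4, 30.8 and 22.1 CPM in control, and were apart, as they were at 4 h. At 0 h they stood at 45.1, 48.5 and 44.1 CPM in ZC3H7B-OE, against 33.4, 34.8 and 109 CPM in control, with control replicate 3 far above the rest. With that library in the fit, the log2 difference of NXT1 was -0.30 at 0 h and above 0 at 2, 4 and 6 h. Its mean difference without that library is not given here, so the missed threshold may rest on it.

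Of the 6 genes of the THO complex, which couples transcription to export, and ALYREF, 6 of the 7 were tested. Of these 2 were lower and 0 higher, against 25.4% and 20.3% of all entries. THOC7, a small subunit, ran from 10.1 to 32.0 CPM with a median of 17.0 in the 12 ZC3H7B-OE libraries, against 14.9 to 116 CPM with a median of 23.7 in the 12 control libraries. The log2 difference was -0.58 (SE 0.19, adjusted p = 0.0117), and with the 0 h libraries left out it was -0.24 (adjusted p = 0.241). At 0 h alone it was -1.52, and -0.90 without control replicate 3 (adjusted p = 0.0254). THOC5 had means of 24.2 ± 5.66 CPM in ZC3H7B-OE and 31.2 ± 9.64 CPM in control (SD over 12 libraries each) and a log2 difference of -0.37 (SE 0.14, adjusted p = 0.0368). That call was lost in 11 of the 24 fits without 1 library and with 2, 4 or 6 h left out, with adjusted p between 0.0518 and 0.187. THOC1, THOC2 and THOC3 had 0.04, -0.11 and 0.11, and the export adaptor ALYREF had 0.15 (adjusted p = 0.328). THOC6 had 54 reads and was not tested.

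NUP62CL is named for its likeness to the C-terminal part of NUP62 and is not an established pore subunit. It was lower in ZC3H7B-OE as a mean of the 4 times and at 0 h, and fell along the chase in both lines. At 0 h it stood at 20.8, 22.8 and 18.5 CPM in ZC3H7B-OE, against 39.3, 32.1 and 86.6 CPM in control. At 6 h it stood at 8.05, 3.96 and 5.13 CPM in ZC3H7B-OE, against 12.6, 12.3 and 10.0 CPM in control. The libraries were apart at 0, 2 and 6 h and overlapped at 4 h, and the differences at 2, 4 and 6 h did not pass (-0.89, -0.66 and -1.01). At 0 h it was -1.30, and -0.78 without control replicate 3 (adjusted p = 0.0616). The mean log2 difference was -0.97 (SE 0.17, adjusted p = 2.15e-05), and -0.84 without control replicate 3 at 0 h. NUP210L, a relative of NUP210, had 16 reads in all.

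Taken at single times, 3 members were higher and 8 lower at 0 h, against 11.7% and 19.5% of all entries. At 2 h the counts were 1 and 3, against 2.19% and 7.26%. At 4 h they were 1 and 3, against 6.79% and 10.9%, and at 6 h 3 and 1, against 6.54% and 9.23%. The log2 difference of NDC1 was -1.41 at 0 h and -0.37 at 6 h, that of SEH1L -1.27 and -0.48, and that of NUP210 1.36 and 0.84. Whether the difference changed along the chase was tested directly, and 0 of 31 members passed (edgeR F test, against 1.73% of all entries). At an unadjusted p under 0.05 there were 6 of 31, against 1846 of 10038 entries. The smallest adjusted p values were 0.0536 for NUP133, 0.0632 for NUP43, 0.06465 for SEH1L and 0.06505 for NDC1. Without control replicate 3 at 0 h the single-time counts were 7, 6, 7 and 7 called members at 0, 2, 4 and 6 h. All entries called were then 2130, 1671, 2840 and 2672, against 3132, 949, 1772 and 1583 with it. NUP133, NUP214, NUP54 and NUP62CL lost their call at 0 h. The test of change then passed for 2 members and 390 entries, against 174 entries with it. With DESeq2 size factors it also passed for 2 members, beside 176 entries, and without filtering for 5, beside 913. Single libraries left out gave 0 to 5 members.

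During the chase itself, many pore mRNAs rose relative to all mRNA. In ZC3H7B-OE 20 members were higher at 6 h than at 0 h and 3 lower, against 32.8% and 30.6% of all entries. In control 16 were higher and 4 lower, against 30.7% and 29.9%. The median log2 change of the 31 members was 1.27 in ZC3H7B-OE and 0.73 in control, where all entries had -0.08 and -0.05. NUP214 had 0 reads at 0 h in control. With it set at 6.05-fold, its ratio to the floor of 3 counts, the control median was still 0.73. Rises were found in the outer ring, where 7 of 8 members rose in ZC3H7B-OE and 6 in control, and in the basket, where all 3 rose in both lines.

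NUP160, a scaffold subunit of the outer ring, had the steepest rise in both lines apart from NUP214 in control, which had 0 reads at 0 h. It stood at 97.5, 101 and 99.7 CPM at 6 h in ZC3H7B-OE, against 4.75, 3.88 and 8.11 CPM at 0 h. In control it stood at 102, 110.3 and 89.3 CPM at 6 h, against 5.90, 4.35 and 5.53 CPM at 0 h. The groups were far apart in both lines, with log2 changes of 4.16 (SE 0.32, adjusted p = 3.01e-13) in ZC3H7B-OE and 4.25 (SE 0.33, adjusted p = 6.07e-13) in control. NUP153 of the basket rose to 332, 317 and 356 CPM at 6 h in ZC3H7B-OE, against 22.5, 27.6 and 22.0 CPM at 0 h. In control it rose to 294, 304 and 327 CPM, against 22.6, 21.7 and 40.6 CPM. Most of that rise was in place by 4 h, where NUP153 averaged 303 CPM in ZC3H7B-OE and 290.2 CPM in control.

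NUP133, the outer ring subunit at the foot of the Y, had a log2 change of 3.83 (SE 0.27, adjusted p = 2.96e-14) in ZC3H7B-OE and 2.59 (SE 0.24, adjusted p = 5.39e-11) in control. NUP205 of the inner ring had 2.79 and 2.58, NUP155 1.63 and 1.43, and THOC2, the large THO subunit, 1.78 and 1.58, in ZC3H7B-OE and control. NDC1, NUP54, NUP98, NXF1 and THOC1 passed in ZC3H7B-OE and not in control (NDC1 1.40 and 0.36), and NUP214 in control and not in ZC3H7B-OE. The lines were not shown to differ in these changes, since the test of change along the chase passed for none of the members. Among the lowest changes were those of NUP62CL (-1.85 in ZC3H7B-OE and -2.14 in control), THOC7 (-0.72, not called, and -1.85), THOC3 (-0.72 and -1.47) and NXT1 (-0.50, not called, and -1.15). NUP210 fell in ZC3H7B-OE (-0.94) and had -0.42 in control, not called. Without control replicate 3 at 0 h, 25 members passed in ZC3H7B-OE and 22 in control, 19 of them also called with it. Entries called were then 6833 and 6188, against 6369 and 6085 with that library. NUP54 in control stood at 77.2, 75.0 and 254 CPM at 0 h, against 209, 198 and 181 CPM at 6 h. NDC1 in control stood at 194, 262 and 450 CPM at 0 h, against 377, 362 and 409 CPM at 6 h. Replicate 3 was the highest 0 h library for both, so their missing control calls may rest on it. The control fall of NXT1 rested on replicate 3 at 0 h and was -0.41 without it (adjusted p = 0.165). Without that library the control change of THOC7 was -1.23, that of NUP43 0.75 (against 0.47 with it) and that of RAE1 1.21 (against 0.73), all still called.

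**Figure D4:**
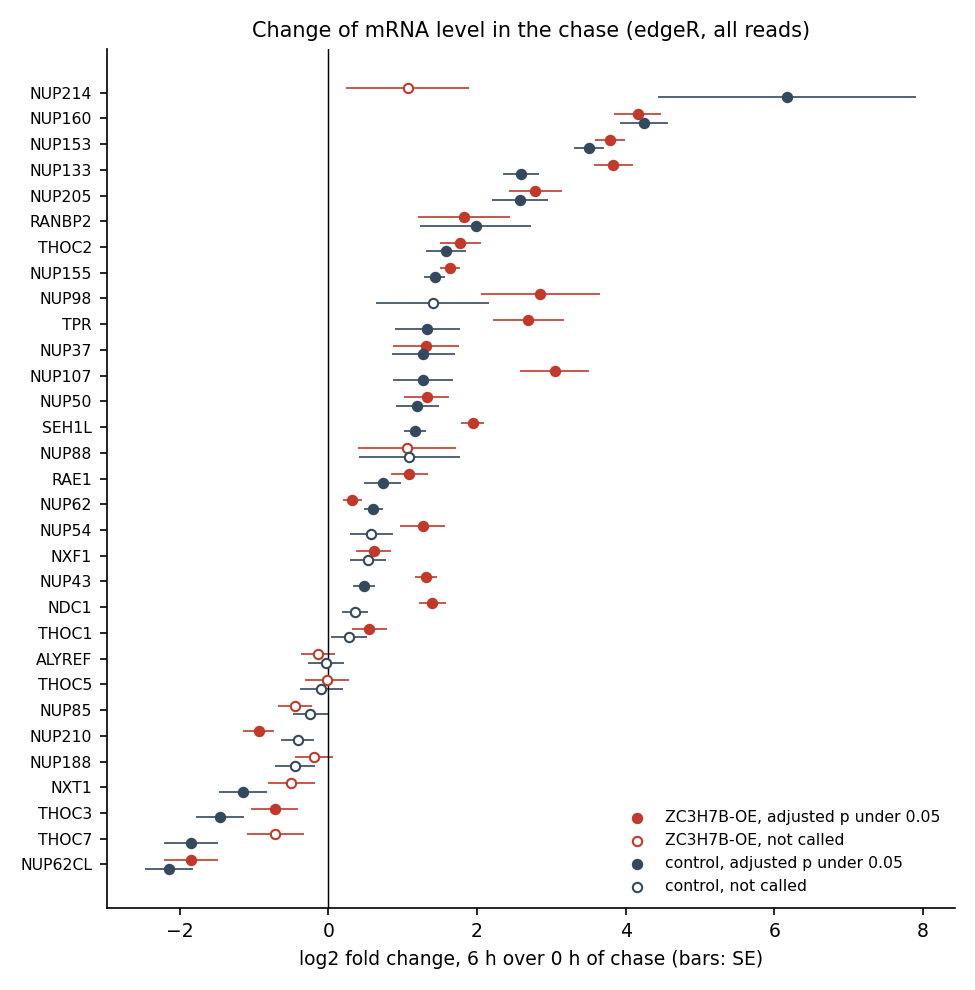
Log2 change, 6 h over 0 h of chase, for the 31 tested members in ZC3H7B-OE (red, upper point of each pair) and control (blue, lower point), bars are SE and filled points passed the adjusted p of 0.05. NUP160 lies at 4.16 in ZC3H7B-OE and 4.25 in control, and NUP62CL at -1.85 and -2.14; the control value of NUP214 is fitted against 0 reads.

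Longer coding sequences went with larger changes: across the 31 members Spearman's rho between coding length and the 6 h over 0 h change was 0.502 in ZC3H7B-OE and 0.622 in control (r 0.561 and 0.643), against 0.259 and 0.357 over 9413 genes (r 0.25 and 0.353). For the length of the gene from first to last base, rho was 0.298 and 0.388 among members and 0.386 and 0.368 over all genes. Of the members 19 lie in genes of 30 to 100 kb, with median log2 changes of 1.40 in ZC3H7B-OE and 1.16 in control, while all 3104 tested genes of that size had 0.36 and 0.27. Genes under 10 kb had -0.78 and -0.77 over 1896 genes. These are descriptions across genes, and the share of gene length in the members' rise was not tested.

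Label loss was followed through labelled reads scaled by all reads, where a half-life is the time for labelled reads to fall by a log2 unit relative to all reads of the library. Of 27 members with enough labelled reads, 17 fell and 3 rose in ZC3H7B-OE, against 72.6% and 1.99% of 8713 entries. In control 17 fell and 3 rose too, against 75.7% and 1.88%. Median half-lives of the falling members were 3.62 h in ZC3H7B-OE and 4.29 h in control, against 3.51 h and 3.28 h over all falling entries. These medians do not compare the lines, as SEH1L was a called fall in control only and NUP50 in ZC3H7B-OE only. The slope in ZC3H7B-OE minus that in control had a median of 0.04 log2 units per h over the 27 members. Over all entries it was 0.02. Without control replicate 3 at 0 h the control calls were 18, as NUP153 (slope 0.19, adjusted p = 0.11) and SEH1L (-0.08, adjusted p = 0.0635) no longer passed, and the slope of NUP54 was -0.09 (against -0.20 with it). With all libraries in the fit, half-lives ran from 1.74 to 8.63 h in ZC3H7B-OE and from 1.31 to 10.3 h in control.

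NXT1 lost label fastest. Its labelled share at 0 h was 90.8, 98.0 and 96.1% in ZC3H7B-OE, against 92.6, 96.9 and 97.5% in control. At 4 h it was 14.6, 21.0 and 16.1% in ZC3H7B-OE, against 19.4, 13.4 and 26.8% in control. Its labelled reads fell, with a slope of -0.58 log2 units per h in ZC3H7B-OE (half-life 1.74 h, adjusted p = 7.26e-09) and -0.76 in control (half-life 1.31 h, adjusted p = 2.18e-11). NXF1, the receptor's large subunit, did not pass, with adjusted p of 0.716 in ZC3H7B-OE and 0.982 in control, and had 57.0% of its reads labelled at 6 h in ZC3H7B-OE, against 53.5% in control. THOC7 had half-lives of 3.51 and 1.94 h, NUP62CL 2.42 and 2.38 h, and NUP62 2.50 and 2.40 h, in ZC3H7B-OE and control. Without control replicate 3 at 0 h the control slopes were -0.63 for NXT1, -0.40 for THOC7, -0.34 for NUP62CL and -0.46 for NUP62. With it they were -0.76, -0.52, -0.42 and -0.42, and all were called both ways. NUP62CL kept a high share of labelled reads while its level fell: at 4 h 85.9% in ZC3H7B-OE (exact binomial 95% interval 75.6 to 93.0%) and 84.5% in control (76.4 to 90.7%), where all entries with 50 reads had medians of 43.1% and 46.7%.

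Among the 10 members that averaged at least 50 labelled reads per control library at 0 h and fell, the slowest in control were SEH1L, NUP155 and NDC1, with half-lives of 10.3, 8.40 and 5.09 h. In ZC3H7B-OE NUP155 had 6.57 h and NDC1 8.63 h, and SEH1L had a slope of -0.01 (adjusted p = 0.781), too flat for a half-life. Without control replicate 3 at 0 h the control slopes of NUP155 and NDC1 were -0.15 and -0.14, against -0.12 and -0.20 with it. NUP133, NUP153 and NUP160 had rising labelled reads, with slopes of 0.28, 0.26 and 0.23 in ZC3H7B-OE and 0.15, 0.20 and 0.25 in control. Labelled reads of NUP153 were 656 of 3205 at 6 h against 127 of 133 at 0 h in ZC3H7B-OE, and 587 of 2873 against 125 of 130 in control. Over 2 to 6 h alone the slope of NUP153 was 0.01 in ZC3H7B-OE and -0.08 in control and that of NUP160 was 0.07 and 0.04, none of them called. NUP133 then had 0.14 in ZC3H7B-OE (adjusted p = 0.0706) and 0.17 in control (adjusted p = 0.0411). Relative to all labelled reads in place of all reads, 9 of the control falls and 8 of the ZC3H7B-OE falls turn to values above 0, in control those of SEH1L, NDC1, NUP43 and NUP155 among them.

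The lines were compared in 2 ways. The slopes themselves differed for 0 of 27 members and for 0% of the 8713 entries (edgeR). Of the entries 480 had an unadjusted p under 0.05, and so did 1 member. This was THOC7, with a difference of 0.23 log2 units per h (SE 0.10, adjusted p = 0.828), and the slope difference of NXT1 was 0.19 (SE 0.10, adjusted p = 0.934). Without control replicate 3 at 0 h the slopes lay closer together. They were -0.28 in ZC3H7B-OE and -0.40 in control for THOC7, and -0.58 and -0.63 for NXT1. The ratio of labelled to unlabelled reads was then compared at each time. Over all entries the median log2 difference of this ratio was -0.17, -0.29, -0.15 and -0.03 at 0, 2, 4 and 6 h, and the members' values below include it. At 0 h 0 of 31 members passed, against 0.0996% of entries higher and 0.807% lower. At an unadjusted p under 0.05 there were 6 members at that time, against 1013 of 10038 entries. At 2 h 3 members were lower and 0 higher, against 4.99% and 0.0797%. At 4 h 1 was lower and 0 higher, against 3.2% and 0.229%. At 6 h 2 were lower and 0 higher, against 2.74% and 3.5%.

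NDC1 was among them at each of these 3 times, and its labelled share was lower in every ZC3H7B-OE library than in any control library at all 4 times. At 0 h the share was 94.0, 94.2 and 91.8% in ZC3H7B-OE, against 95.2, 96.9 and 95.1% in control, a difference that did not pass. At 2 h it was 85.8, 81.9 and 86.0% in ZC3H7B-OE, against 93.3, 91.3 and 88.8% in control. At 4 h it was 43.8, 39.7 and 42.5% in ZC3H7B-OE, against 53.1, 59.6 and 55.9% in control. At 6 h it was 23.4, 25.7 and 22.2% in ZC3H7B-OE, against 33.1, 33.7 and 32.3% in control. The log2 ratio differed by -0.92 (SE 0.25, adjusted p = 0.0118) at 2 h, -0.82 (SE 0.17, adjusted p = 0.00101) at 4 h and -0.66 (SE 0.17, adjusted p = 0.00622) at 6 h. NUP43 passed at 2 h, -0.95 (SE 0.25, adjusted p = 0.00951), and at 6 h, -0.74 (SE 0.18, adjusted p = 0.00427), where the share was 23.1, 19.1 and 20.5% in ZC3H7B-OE, against 33.6, 27.8 and 30.5% in control. SEH1L passed at 2 h only, -1.18 (SE 0.32, adjusted p = 0.0120), with 78.9, 76.5 and 89.9% in ZC3H7B-OE, against 91.3, 91.2 and 91.2% in control. NUP155, the next at 6 h, had -0.39 (SE 0.18, adjusted p = 0.236). At 2 h the 3 calls were lost without control replicate 1 (adjusted p = 0.161 for NDC1, 0.0936 for NUP43 and 0.0508 for SEH1L). They were also lost when each kind of reads was scaled by its own total (0.227, 0.172 and 0.166), and without ZC3H7B-OE replicate 2 NUP43 alone passed. NUP43 lost its call at 2 h without ZC3H7B-OE replicate 3 (0.294), and SEH1L without ZC3H7B-OE replicate 1 (0.0755). At 6 h NDC1 lost its call without ZC3H7B-OE replicate 3 (0.0556) and NUP43 without control replicate 1 or ZC3H7B-OE replicate 2 (0.0604 and 0.0555).

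**Figure D5:**
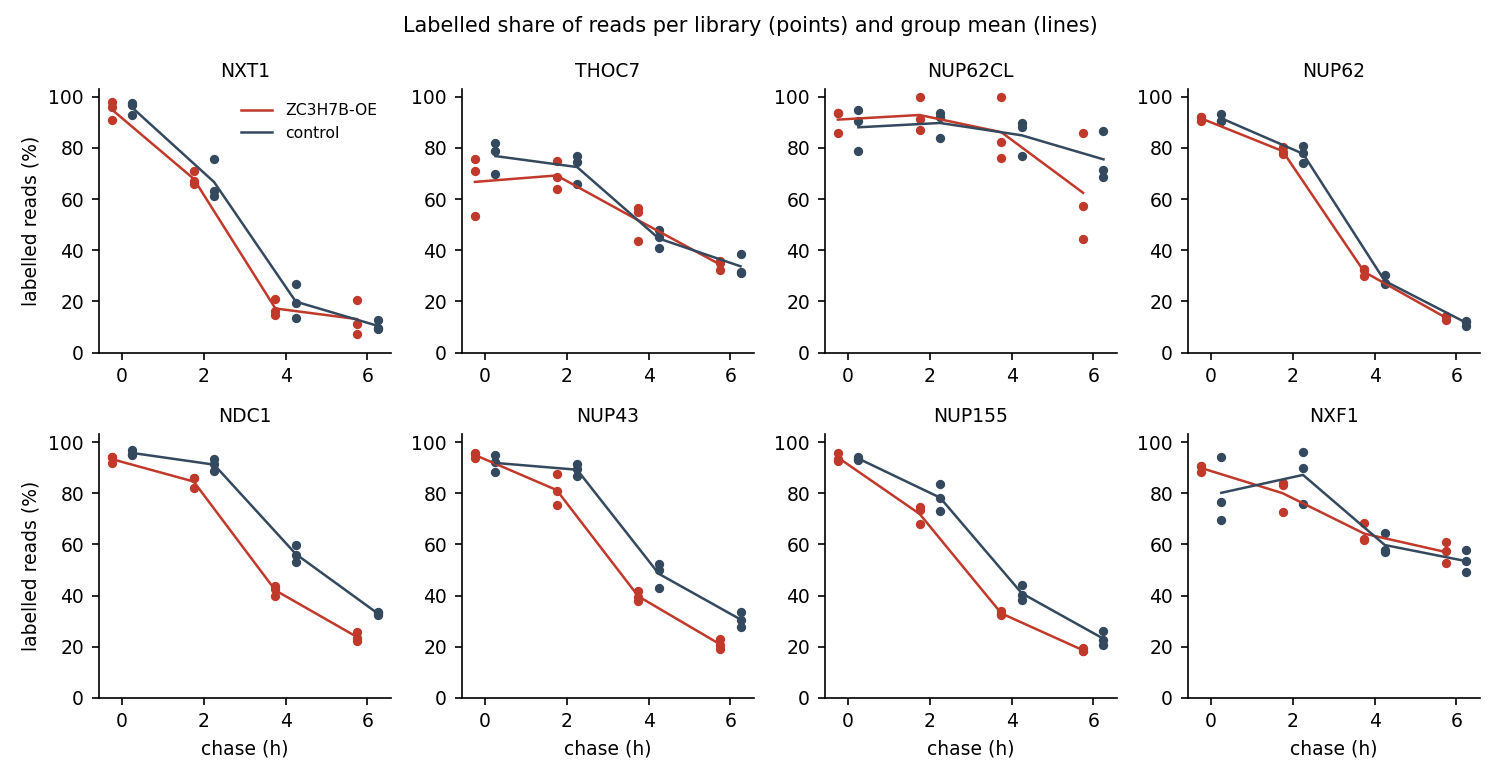
Percentage of reads that were labelled in each library (points) and as group means (lines) at 0, 2, 4 and 6 h of chase for 8 members, ZC3H7B-OE in red and control in blue. NXT1 falls fastest, NUP62CL and NXF1 stay above 50% in control at 6 h (75.7% and 53.5% of pooled reads), the means of NDC1 lie lower in ZC3H7B-OE at all 4 times, and those of NUP43 lie lower at 2, 4 and 6 h and higher at 0 h (94.9% in ZC3H7B-OE and 91.8% in control).

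As a whole, the members' reads were labelled at 86.3 ± 1.06, 76.7 ± 1.90, 35.5 ± 0.81 and 20.2 ± 0.42% at 0, 2, 4 and 6 h in ZC3H7B-OE, against 89.0 ± 1.08, 80.8 ± 2.79, 41.3 ± 1.29 and 24.1 ± 1.04% in control (SD, n = 3 each). Whole libraries were labelled at 74.8, 71.8, 45.5 and 29.6% in ZC3H7B-OE, against 76.7, 75.7, 47.7 and 29.9% in control. NUP62 alone gave the most reads of any member, so these sums lean on it. The members together took 0.352 ± 0.006% of reads at 6 h in ZC3H7B-OE and 0.309 ± 0.006% in control, and 0.189 ± 0.007% and 0.175 ± 0.006% at 0 h. All of these are shares of the mRNA sampled: in bulk libraries fewer cells with an mRNA and less of it per cell cannot be told apart.

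Genes that work beside the members were described by 2 further lists. Of 24 tested pore and export genes outside the rule, 6 were higher in ZC3H7B-OE and 7 lower, where 20.3% of all entries were higher and 25.4% lower. POM121C, a transmembrane nucleoporin, was at 377 CPM in ZC3H7B-OE and 267 CPM in control on average (log2 0.50, adjusted p = 1.92e-07). SRSF1, a splicing factor that also acts as an export adaptor, was at 1134 CPM in ZC3H7B-OE and 1588 CPM in control (log2 -0.52, adjusted p = 7.88e-09), and RBM8A of the exon junction complex was at 625 and 856 CPM (log2 -0.45, adjusted p = 5.33e-08). Of 26 tested nuclear transport receptors and genes of the Ran system, 6 were higher and 11 lower, beside the same shares of all entries. XPOT, the tRNA exporter, was at 298 CPM in ZC3H7B-OE and 622 CPM in control (log2 -1.08, adjusted p = 2.85e-15). The importin KPNA4 had a log2 difference of -0.74 and the exportin XPO4 one of -0.92. The median log2 difference was 0.09 in the first list and -0.12 in the second, against 0.01 over all entries.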

How the data were processed

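The authors deposited raw read counts per gene as whole numbers in 2 tables: total reads, and the subset carrying T>C conversions. Per the submitters' processing notes the build is GRCh37 and fastp was used. The library kit marks strand per the labels' protocols. Aligner, conversion caller, counting rule and strand setting: not given in the sources used here. Groups were taken from the labels, 3 libraries each.

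Testing used edgeR 4.0.16 under R 4.3.3 on these counts (robust quasi-likelihood, 8 group means, TMM, filterByExpr with a minimum count of 10, Benjamini-Hochberg over 10038 entries, threshold 0.05). Entries naming several genes (450 of 19692) stayed in. Labelled reads were fitted with a slope over hours per line on 8713 entries, with library sizes of all reads. Labelled and unlabelled reads of a library were fitted side by side for their ratio. Fits were tested on simulated data. Pairs of replicates differed by a chi-square of 2.28 to 30.4 per degree of freedom, so none was counted as a duplicate. Intervals and the floor of 3 counts cover counting error only, as PCR reads are not independent molecules.

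Members given per library, or as summaries over libraries where space was short, were named by a rule. From the line difference came the 8 smallest adjusted p with the same sign at all 4 times and at least 20 reads per library on average. The change along the chase gave its called members with the smallest adjusted p (0 members). Label loss in control gave the 3 fastest and 3 slowest called falls, among 10 members averaging at least 50 labelled reads per 0 h library. The rest were the 3 smallest adjusted p of the labelled ratio at 6 h, and NUP214, NXF1, NXT1, DDX19A and DDX19B. NUP160, NUP153, NUP188 and THOC5 were added after their values were seen. NUP98 counts in 2 lists. Members, lists and tests were chosen with earlier results of these data known. Alternatives were DESeq2 1.42.0, its size factors, no filter, single libraries or times left out, the replicate block, other library sizes, and 2 h as the start, chosen after seeing the data. Coding sequences come from GENCODE v29 (GRCh38), matched by gene ID (31 of 31 tested members, 96.8% of 9728 tested single-gene entries), and none of its coordinates was set beside the files.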

Additional observations from a re-analysis of the deposited data

How the results depend on the processing

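The mean line difference called 13 members, 11 to 14 with single libraries left out and 9 to 14 under the other alternatives run (9 with 4 h or 6 h left out). Entries called were 3783 with 4 h left out and 3681 with 6 h left out, against 4594 as reported. At 0 h the count of 11 was 7 to 11 with single libraries left out and 4 in the 6 libraries of that time alone. Those 6 libraries called 791 entries, against 3132 as reported. At 2 h the count of 4 became 2 to 6 with single libraries left out. At 4 h and 6 h the count of 4 became 1 to 7 at both times, and 9 and 8 in the 6 libraries of that time alone. The entries called then were 3104 and 3286, against 1772 and 1583 as reported. The test of change along the chase gave 0 to 5 with single libraries left out, 5 without a filter and 2 with DESeq2 size factors. The last 2 settings called 913 and 176 entries, against 174 as reported. For the labelled ratio at 2 h the count of 3 became 0 to 4, and 0 with each kind of reads scaled by its own total. That scaling called 138 entries at 2 h, against 509 as reported. At 6 h the count of 2 became 1 to 2. The causes were not tested.

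Scaling labelled reads by their own library sizes moved the median slope of all entries to -0.01 in ZC3H7B-OE, against -0.24, and to -0.02 in control, against -0.26. The counts of 20 became 13 in ZC3H7B-OE and 12 in control. Entries called went from 6498 to 2512 in ZC3H7B-OE and from 6756 to 3142 in control. Slopes then above 0 in control were ALYREF 0.00698, NDC1 0.0443, NUP155 0.128, NUP188 0.0127, NUP210 0.0819, NUP43 0.0329, NUP54 0.0408, NUP85 0.0924 and SEH1L 0.144. In ZC3H7B-OE they were ALYREF 0.0389, NDC1 0.1252, NUP155 0.0919, NUP210 0.00756, NUP43 0.0744, NUP50 0.0487, NUP54 0.0849 and RAE1 0.0178. NUP153 in control had -0.0760 over 2 to 6 h. With 2 h as the start of the chase, a choice made after seeing the data, NXT1 had 0.0996 and TPR -0.00874 in control and NUP98 -0.0583 in ZC3H7B-OE.

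Of 3720 values of single members under alternatives, 3508 stayed on their side of the threshold with the same direction, 191 lost their call and 21 changed direction. Replicate numbers are shared by the groups, and no pairing of libraries by number was seen. Above 0.1 correlated 7 of 84 same-number pairs and 14 of 168 different-number pairs, and 10 of 24 libraries correlated best with their own number. Whether equal numbers mark a shared culture is not given. With the replicate block the mean line difference called 14 members, and the other counts were 11, 4, 4 and 3 at 0, 2, 4 and 6 h, 0 for the change, 23 and 20 for the chase in ZC3H7B-OE and control, 20 and 20 for label loss, 0 for its line difference, and 0, 3, 1 and 2 for the labelled ratio at 0, 2, 4 and 6 h. Entries of 8 members held 2 to 54 reads in all and were not tested. For DDX19A and DDX19B most reads stood in entries shared with RP11-529K1.3.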
